A study of Homo sapiens with 8 samples.

Results

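SCRIB, LLGL1, LLGL2, DLG1, SPARC, CACFD1, TSC1 and TSC2 are 8 genes named in work on cell competition, the elimination of viable cells by fitter neighbours. They were taken by gene symbol from an FPKM table of 45961 gene rows, and each matched 1 row. All 8 passed the filter on low values, a mean FPKM of 1 or more across libraries, and so were among the 12449 rows tested. FPKM is a fragment count scaled to transcript length and to the size of the library, so levels of different genes can be set side by side. The series measured polyA RNA of the human embryonic stem cell line H9, and its title places it in work on cell competition and interspecies chimeras. H9 cells were taken on day 1 of co-culture (D1_Co, replicates 2 and 3), on day 2 (D2_Co, replicates 1 and 3) and on day 3 (D3_Co, replicates 1 and 2). The reference was H9 cells grown separately and taken on day 3 (D3_Control, replicates 2 and 3). The libraries come from 1 cell line, with no genetic change named in the labels. The labels describe mTeSR1 medium on Matrigel, or NBFR medium with FGF2 and IWR1 on inactivated mouse embryonic fibroblasts, without saying which library had which. They name neither the partner cells nor how the human cells were separated from them. Nothing says that replicates came from separate cultures, so the spread may be technical, and with no separate culture on days 1 and 2 the effect of co-culture cannot be told apart from that of time there.

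Scribble, Lgl and Dlg proteins form a module at the basolateral side of epithelial cells that keeps the apical complexes away from it. In Drosophila, cells that lose scribble, lethal giant larvae or discs large among normal neighbours are eliminated, which made this module a classic case of cell competition. SPARC is a secreted calcium-binding matricellular protein, and in Drosophila it is made by loser cells and delays their removal. CACFD1 is the human relative of the Drosophila Flower protein, a membrane protein whose isoforms mark winner and loser cells. TSC1 and TSC2 form the complex that holds back Rheb and, through it, the growth kinase complex mTORC1. In mouse embryonic stem cells, a route of p53 and mTOR is known to act when less fit cells are eliminated.

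The promoters of SPARC and CACFD1, are shown because these genes had the widest relative ranges over the libraries and the largest called differences. Each is the stretch of 250 bases before the gene's start in RefSeq (GRCh38.p14), read 5′ to 3′ on the gene's own strand. The SPARC stretch lies at chr5:151686916-151687165 on the minus strand, and that of CACFD1 at chr9:133459728-133459977 on the plus strand. In GENCODE v29 both genes start further upstream. SPARC starts at 151687165 there, which puts its whole stretch inside the annotated gene. CACFD1 starts at 133459965, which puts the end of its stretch, with the marked octamer, inside the annotated gene. Capitals mark the motif GGAGG, searched on both strands, in SPARC and the octamer ATGCNAAT, also searched on both strands, in CACFD1.
SPARC promoter: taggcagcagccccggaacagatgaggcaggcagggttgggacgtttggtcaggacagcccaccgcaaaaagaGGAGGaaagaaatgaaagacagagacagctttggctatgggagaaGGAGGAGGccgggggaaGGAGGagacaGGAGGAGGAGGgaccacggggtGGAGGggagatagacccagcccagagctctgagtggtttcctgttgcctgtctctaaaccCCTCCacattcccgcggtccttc
CACFD1 promoter: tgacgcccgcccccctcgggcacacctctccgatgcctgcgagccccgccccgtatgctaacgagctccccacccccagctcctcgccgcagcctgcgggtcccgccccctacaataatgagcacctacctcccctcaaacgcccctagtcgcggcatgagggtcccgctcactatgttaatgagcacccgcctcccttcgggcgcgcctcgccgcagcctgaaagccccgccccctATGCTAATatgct
The SPARC stretch held 9 matches to GGAGG with overlapping matches counted, 8 on the printed strand and 1 on the other, and 1.1% of 35116 promoters of the same length held as many or more. At least 1 match was held by 72.4% of them. The CACFD1 stretch held 1 match to the octamer, the motif of POU family factors with any base in the fifth place, and 2.69% of the promoters held it. These are matches of letters, not sites of binding. Each stretch was searched for its own motif, and neither motif was part of the planned tests. The shares therefore describe the stretches and are no measure of how unusual a match is there.

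The deposited values are partly on the wrong rows, so each library was put back into order before any comparison. The order of the rows follows from a text sort of the gene numbers joined to their values, done for each library with the separator and the decimal point ignored, and from setting the sorted values beside the gene numbers of D1_Co replicate 2. That history allows a limited set of orders, and the one closest to D1_Co replicate 2 was taken in each library. The correlation of log2(FPKM + 1) between libraries of 1 group lay between 0.992 and 0.994 after this step, against 0.825 to 0.893 as deposited. Part of this rise follows from the step itself, which drew every library towards D1_Co replicate 2. Of the 64 values of the 8 genes, 15 were moved, namely 1 of SCRIB, 5 of LLGL2, 1 of SPARC, 4 of TSC1 and 4 of TSC2. The rows of LLGL1, DLG1 and CACFD1 needed no change. In the deposited table TSC2 stood at 0, 0, 49.8 and 0 FPKM in 4 libraries, and the restored values there lay between 20.7 and 22.3 FPKM. Of the 56 values outside D1_Co replicate 2, 45 were the one value that the sort allowed on that row, and the other 11 belonged to LLGL2, SPARC and CACFD1. All 64 were the same when D3_Control replicate 2, as restored, was the library to match. That library had itself been matched to D1_Co replicate 2, and the 45 values with no other allowed value could not change. This check therefore bears on few of the values and is not independent of the first step.

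**Figure D1:**
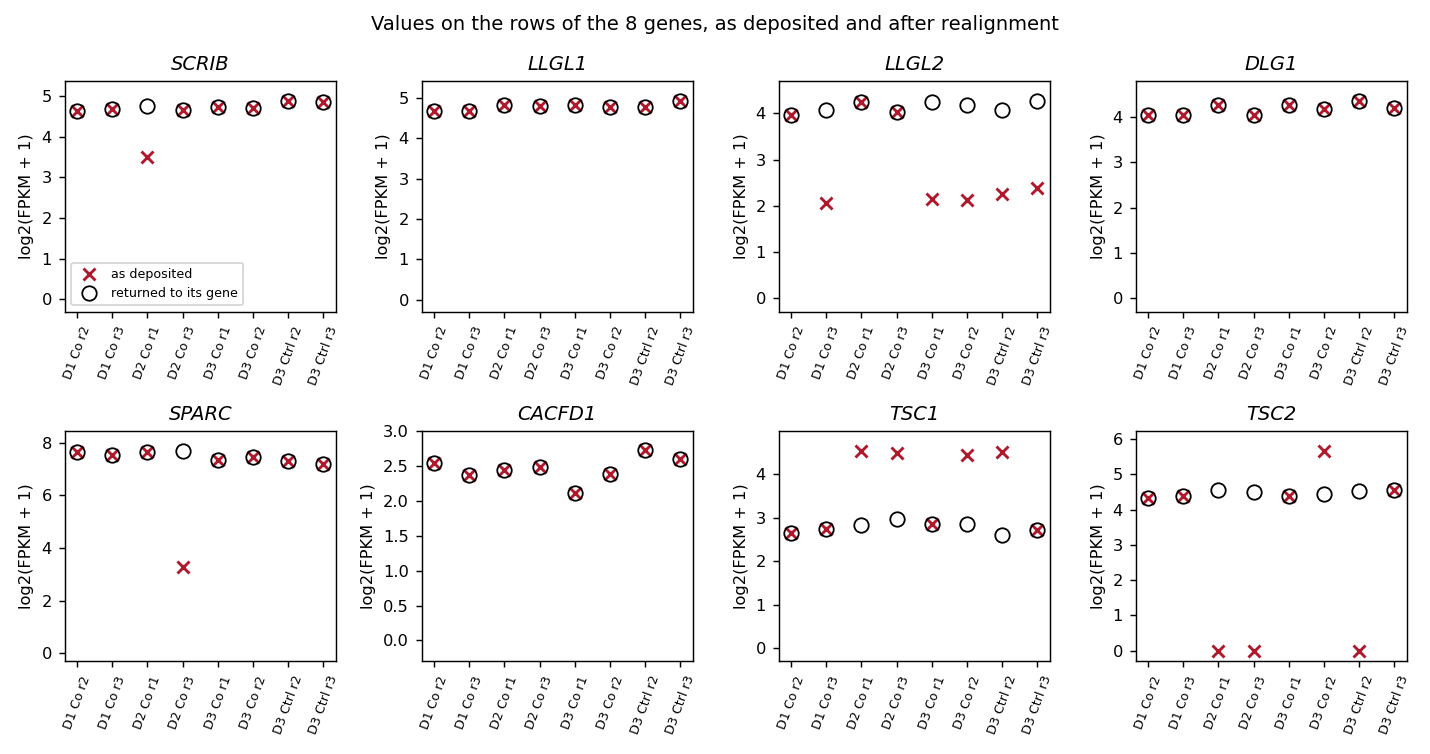
Values on the rows of the 8 genes in each library (x axis) as log2(FPKM + 1) (y axis), with crosses for the deposited value and circles for the value returned to its gene. Crosses lie off their circles in 15 of 64 cases, among them 5 of LLGL2 and 4 each of TSC1 and TSC2.

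The 8 genes were all expressed in every library, at levels that lay far apart between SPARC and the rest. SPARC was far the highest with a mean of 177.8 FPKM over the 8 libraries, above 97.3% of the tested genes. LLGL1 followed with 26.7 FPKM, SCRIB with 25.6, TSC2 with 21.0, DLG1 with 17.2 and LLGL2 with 16.7 FPKM. TSC1 had 5.89 FPKM and CACFD1 4.55 FPKM, above 37.4% and 30.6% of the tested genes. Within a library, LLGL1 lay above SCRIB in 6 of 8 libraries, DLG1 above LLGL2 in 6 of 8 and TSC1 above CACFD1 in 7 of 8, so these neighbours changed places. TSC2 lay above DLG1 in 8 of 8 libraries, although their ranges over all libraries overlapped. Between its lowest and highest library a gene differed by 1.18 times (TSC2) to 1.69 times (CACFD1), with SPARC at 1.43 times.

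**Figure D2:**
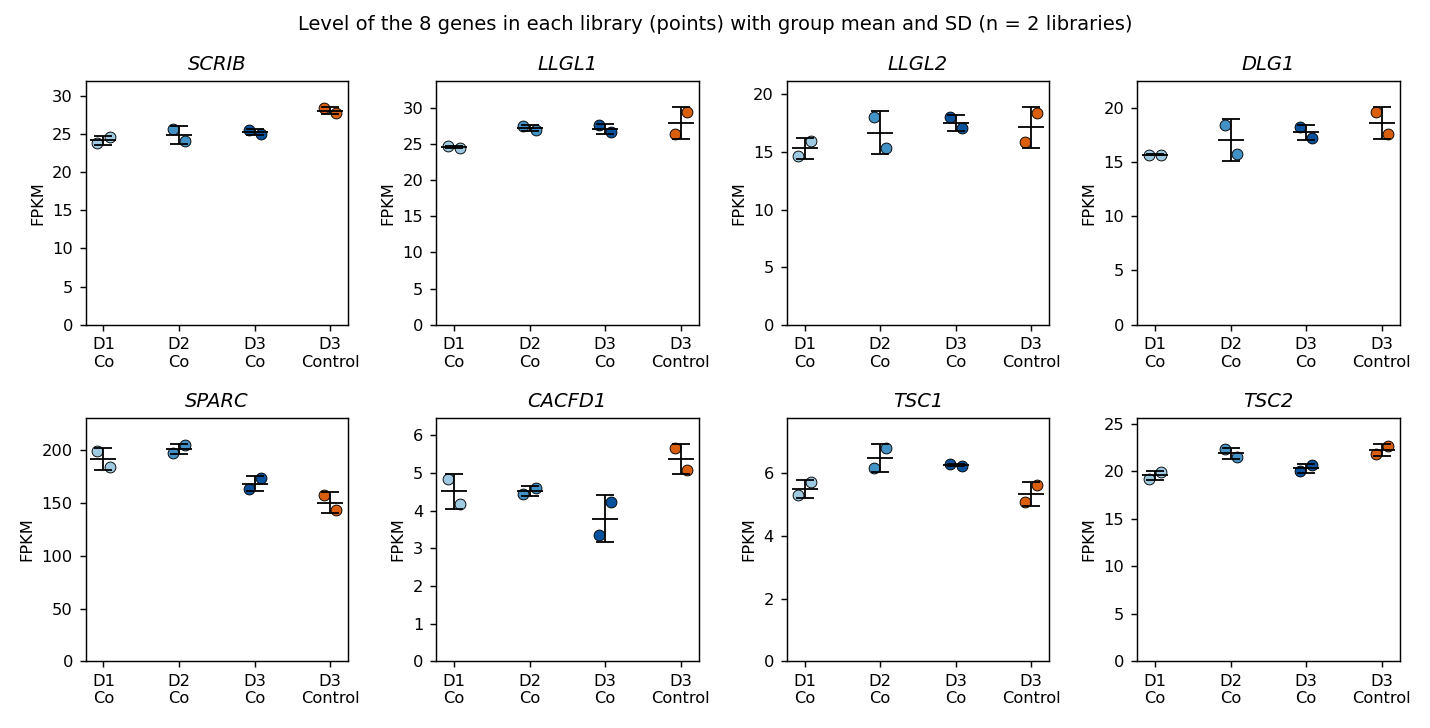
FPKM (y axis, from 0) of the 8 genes in each library (points) of the 4 groups (x axis), with group mean and SD (n = 2 libraries). SPARC lies higher in the co-culture libraries (163 to 204 FPKM) than in D3_Control (143 and 157 FPKM), and SCRIB and CACFD1 lie lower in all 6 co-culture libraries than in both D3_Control libraries. The share of all tested genes separated in this way was not counted.

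SCRIB encodes the large scaffold protein of the polarity module, with leucine-rich repeats and PDZ domains, and lies on chromosome 8. It had 23.7 and 24.6 FPKM in D1_Co, 25.7 and 24.1 FPKM in D2_Co and 25.5 and 24.9 FPKM in D3_Co, against 28.4 and 27.7 FPKM in D3_Control. All 6 co-culture libraries lay below both D3_Control libraries. SPARC, higher in co-culture, and CACFD1 were separated from D3_Control on all 3 days as well. For 1 day at a time, groups did not overlap in 64.7%, 66.2% and 65.5% of tested genes in D1_Co, D2_Co and D3_Co. The share of tested genes separated on all 3 days at once was not counted. Here, as for every gene in these bulk samples, less RNA per cell and fewer cells of a type cannot be told apart. SCRIB fell in D1_Co against D3_Control, by 0.21 on the log2(FPKM + 1) scale (SE 0.05, adjusted p = 0.0331 in limma), to 0.862 times the D3_Control level. The log2 difference was -0.17 in D2_Co (adjusted p = 0.0611) and -0.15 in D3_Co (adjusted p = 0.0876), and neither passed the threshold of 0.05. The call on day 1 rested on each of the 4 libraries compared: without D1_Co replicate 2 or 3 the adjusted p was 0.14 and 0.0723, and without D3_Control replicate 2 or 3 it was 0.131 and 0.103. It was lost as well with median-of-ratios scaling (adjusted p = 0.0696), with quantile normalization (0.0641), without the intensity trend (0.0529) and with only the groups compared in the fit (0.0588).

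LLGL1 and LLGL2 encode the human Lgl proteins, which inhibit the apical kinase aPKC and are inhibited by it. LLGL1 had 24.7 and 24.5 FPKM in D1_Co, 27.5 and 26.9 FPKM in D2_Co and 27.6 and 26.6 FPKM in D3_Co, against 26.3 and 29.4 FPKM in D3_Control. Its D1_Co libraries were the lowest of the 8, while D2_Co and D3_Co lay inside the range of D3_Control. The log2 difference of LLGL1 in D1_Co against D3_Control was -0.17 (SE 0.06, adjusted p = 0.0914), and it passed in a fit without D3_Control replicate 2 (adjusted p = 0.0494). LLGL2 had 14.6 and 16.0 FPKM in D1_Co, 18.02 and 15.4 FPKM in D2_Co and 18.03 and 17.1 FPKM in D3_Co, against 15.9 and 18.4 FPKM in D3_Control. The LLGL2 groups overlapped D3_Control on all 3 days. Its log2 differences against D3_Control were -0.15 in D1_Co, -0.04 in D2_Co and 0.04 in D3_Co, with adjusted p of 0.313, 0.818 and 0.822, and the 95% interval on day 3 was -0.20 to 0.27.

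DLG1 encodes a PDZ scaffold protein that binds the tails of membrane proteins at cell junctions. It had 15.6 and 15.7 FPKM in D1_Co, 18.4 and 15.7 FPKM in D2_Co and 18.2 and 17.2 FPKM in D3_Co, against 19.6 and 17.5 FPKM in D3_Control. The D1_Co libraries were again the lowest of the 8, though D2_Co replicate 3 was level with them. The log2 difference of DLG1 against D3_Control was -0.23 in D1_Co (SE 0.09, adjusted p = 0.103), -0.12 in D2_Co (adjusted p = 0.355) and -0.06 in D3_Co (adjusted p = 0.633). None of the 4 polarity genes passed the test between days of co-culture. The log2 differences of D3_Co minus D1_Co were 0.06 for SCRIB, 0.14 for LLGL1, 0.19 for LLGL2 and 0.17 for DLG1, with adjusted p between 0.15 and 0.446.

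SPARC had 198.9 and 184.4 FPKM in D1_Co, 197.6 and 204.5 FPKM in D2_Co and 163.2 and 173.4 FPKM in D3_Co, against 157.2 and 143.3 FPKM in D3_Control. No co-culture library overlapped D3_Control, and both D3_Co libraries lay below all 4 libraries of D1_Co and D2_Co. SPARC rose in D1_Co against D3_Control, by 0.35 on the log2 scale (SE 0.07, adjusted p = 0.00978), which is 1.27 times the D3_Control level. It rose in D2_Co by 0.42 (SE 0.07, adjusted p = 0.00471), which is 1.34 times. In D3_Co the log2 difference was 0.16 (95% interval 0.01 to 0.32, adjusted p = 0.112), which did not pass except with quantile normalization (adjusted p = 0.0362). Between days, SPARC fell in D3_Co against D2_Co by 0.26 on the log2 scale (SE 0.07, adjusted p = 0.0408). The difference D3_Co minus D1_Co was -0.19 (adjusted p = 0.074), which passed with median-of-ratios scaling (adjusted p = 0.045), and D2_Co minus D1_Co was 0.07 (adjusted p = 0.545).

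The day 2 rise of SPARC was called in each of the 8 fits that left out 1 library. The day 1 rise was not called without D1_Co replicate 2 (adjusted p = 0.0584) or without D3_Control replicate 3 (adjusted p = 0.0648). The fall on day 3 against day 2 was lost without D2_Co replicate 1 (adjusted p = 0.107), D2_Co replicate 3 (0.161), D3_Co replicate 1 (0.161) or D3_Co replicate 2 (0.0795). It was also lost without the filter on low values (0.0761), without the intensity trend (0.0656) and with only the groups compared (0.056). The SPARC value of D2_Co replicate 3 had been moved from another row, and with the deposited value the day 2 difference was -1.78 on the log2 scale and not called. Exons of the antisense gene CLMAT3 cover 7.89% of the SPARC exon bases, and the sources used here do not say whether the libraries or the counting kept strand.

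SPARC is also made by fibroblasts and by early endoderm, so markers of both were set beside it. Of 15 fibroblast genes, 8 were tested, of which 1 was called higher in D1_Co, 3 in D2_Co and 4 in D3_Co against D3_Control, and none lower. Their summed level was 1360 to 1518 FPKM in D1_Co, 1530 to 1626 in D2_Co and 1217 to 1246 in D3_Co, against 743 to 860 FPKM in D3_Control. Most of it was VIM, an intermediate filament gene that stem cells also express, at 857 to 1288 FPKM in co-culture and 420 and 542 FPKM in D3_Control. The defining fibroblast genes DCN, LUM and FAP were listed at 0 in every library, and COL3A1 was below 0.1 FPKM in every library. Some other genes of the list were higher in both D3_Co libraries than in both D3_Control libraries. COL1A1 had 42.52 and 39.96 FPKM in D3_Co, against 27.62 and 28.83 FPKM in D3_Control. In the same groups COL1A2 had 25.11 and 24.93, against 13.28 and 11.83, and S100A4 had 8.498 and 8.554, against 4.002 and 3.843. In D1_Co, COL1A1 (25.27 and 23.12 FPKM) and COL1A2 (11.63 and 11.03 FPKM) lay below both D3_Control libraries. Of 15 endoderm genes, 10 were tested, of which 5 were called higher and 3 lower in D1_Co, 5 higher and 1 lower in D2_Co and 3 higher and 1 lower in D3_Co against D3_Control. In D3_Co against D2_Co, where SPARC fell, 1 of these endoderm genes was higher and 5 were lower. The summed level of the 15 was 158 to 183 FPKM in D1_Co, 177 to 189 in D2_Co and 135 to 159 in D3_Co, against 134 to 135 FPKM in D3_Control. Most of it was the basement membrane genes COL4A1, COL4A2, LAMB1 and LAMC1, so the sum says little about the endoderm factors. COL4A1 differed widely between replicates, with 25.0 and 48.0 FPKM in D1_Co and 41.3 and 19.9 FPKM in D3_Co. The endoderm transcription factor gene SOX17 had 0.84 and 0.86 FPKM in D1_Co, 0.71 and 0.49 in D2_Co and 0.06 in each D3_Co library, against 0.02 and 0 FPKM in D3_Control. EOMES, which acts early in endoderm formation, had 3.67 and 4.11 FPKM in D1_Co, 0.99 and 1.601 in D2_Co and 0.15 and 0.14 in D3_Co, against 0.18 and 0.07 FPKM in D3_Control. The surface receptor gene CXCR4 had 8.24 and 7.96 FPKM in D1_Co, 5.81 and 6.66 in D2_Co and 2.19 and 2.03 in D3_Co, against 0.87 and 1.49 FPKM in D3_Control. All 3 were higher in each D1_Co and D2_Co library than in any D3_Co or D3_Control library. GATA4 and GATA6, also endoderm factors, followed the same order: they lay between 0.40 and 0.92 FPKM in D1_Co and D2_Co and at 0.12 FPKM or less in D3_Co and D3_Control. The part of endoderm cells, and of reads from partner or feeder cells, in the SPARC values was not tested.

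CACFD1 had 4.84 and 4.18 FPKM in D1_Co, 4.43 and 4.61 FPKM in D2_Co and 3.34 and 4.24 FPKM in D3_Co, against 5.65 and 5.08 FPKM in D3_Control. All 6 co-culture libraries lay below both D3_Control libraries, and D3_Co replicate 1 was the lowest. CACFD1 fell in D3_Co against D3_Control, by 0.42 on the log2(FPKM + 1) scale (SE 0.11, adjusted p = 0.0362), to 0.706 times the D3_Control level. In D1_Co and in D2_Co the log2 difference was -0.21 each, with adjusted p of 0.225 and 0.229. At these low levels the added 1 FPKM makes the log2 difference smaller than that of the FPKM means. The table has 1 value per gene, so the CACFD1 isoforms that would match the winner and loser forms of Flower were not analysed here.

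The day 3 fall of CACFD1 was lost without D2_Co replicate 1 or 3 (adjusted p = 0.0567 each), without D3_Co replicate 1 (0.151) and without either D3_Control library (0.158 for replicate 2, 0.0791 for replicate 3). It was also lost without the filter on low values (0.0788) and with only the groups compared (0.0735). No other annotated gene overlaps the exons of CACFD1 at chr9:133459965-133470848 in GENCODE v29 (GRCh38).

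TSC1 encodes hamartin, which stabilises the complex, and TSC2 encodes tuberin, its GTPase-activating subunit for Rheb. TSC1 had 5.29 and 5.70 FPKM in D1_Co, 6.16 and 6.79 FPKM in D2_Co and 6.29 and 6.22 FPKM in D3_Co, against 5.07 and 5.61 FPKM in D3_Control. D2_Co and D3_Co lay above both D3_Control libraries, and D1_Co overlapped them. The log2 difference of TSC1 against D3_Control was 0.03 in D1_Co (adjusted p = 0.793), 0.24 in D2_Co (SE 0.08, adjusted p = 0.0694) and 0.20 in D3_Co (SE 0.08, adjusted p = 0.12). None passed the threshold. TSC2 had 19.2 and 19.9 FPKM in D1_Co, 22.3 and 21.5 FPKM in D2_Co and 20.0 and 20.7 FPKM in D3_Co, against 21.8 and 22.7 FPKM in D3_Control. D1_Co and D3_Co lay below both D3_Control libraries, and D2_Co overlapped them. The log2 difference of TSC2 was -0.18 in D1_Co (SE 0.05, adjusted p = 0.0516), -0.02 in D2_Co (adjusted p = 0.802) and -0.12 in D3_Co (SE 0.05, adjusted p = 0.13). The day 1 value passed in a fit limited to genes with a mean of at least 5 FPKM (adjusted p = 0.0467). Exons of PKD1 and NTHL1, on the opposite strand, cover 6.01% of the TSC2 exon bases.

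Because the complex needs both subunits, their ratio was taken within each library. TSC2 over TSC1 was 3.64 and 3.50 in D1_Co, 3.63 and 3.17 in D2_Co and 3.18 and 3.32 in D3_Co, against 4.30 and 4.05 in D3_Control. Every co-culture library had a lower ratio than both D3_Control libraries. The share of gene pairs whose ratio was separated in this way was not counted. The mean ratio was 3.25 ± 0.10 in D3_Co and 4.17 ± 0.18 in D3_Control (SD, n = 2 each). No test was run on the ratio, and with 2 libraries a group the smallest p of a two-sided exact permutation test is 0.333. The ratio of the 2 Lgl genes, LLGL1 over LLGL2, averaged 1.61, 1.64 and 1.55 in D1_Co, D2_Co and D3_Co, against 1.63 in D3_Control. SCRIB over DLG1 averaged 1.54, 1.47 and 1.42 in the same groups, against 1.51 in D3_Control. Both of these ratios overlapped D3_Control on days 1 and 2. On day 3 SCRIB over DLG1 overlapped, while LLGL1 over LLGL2 was lower in both D3_Co libraries (1.53 and 1.56) than in D3_Control (1.66 and 1.602). SCRIB over LLGL1 was also taken and averaged 0.982, 0.915 and 0.929 in D1_Co, D2_Co and D3_Co, against 1.009 in D3_Control. It overlapped D3_Control on day 1.

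**Figure D3:**
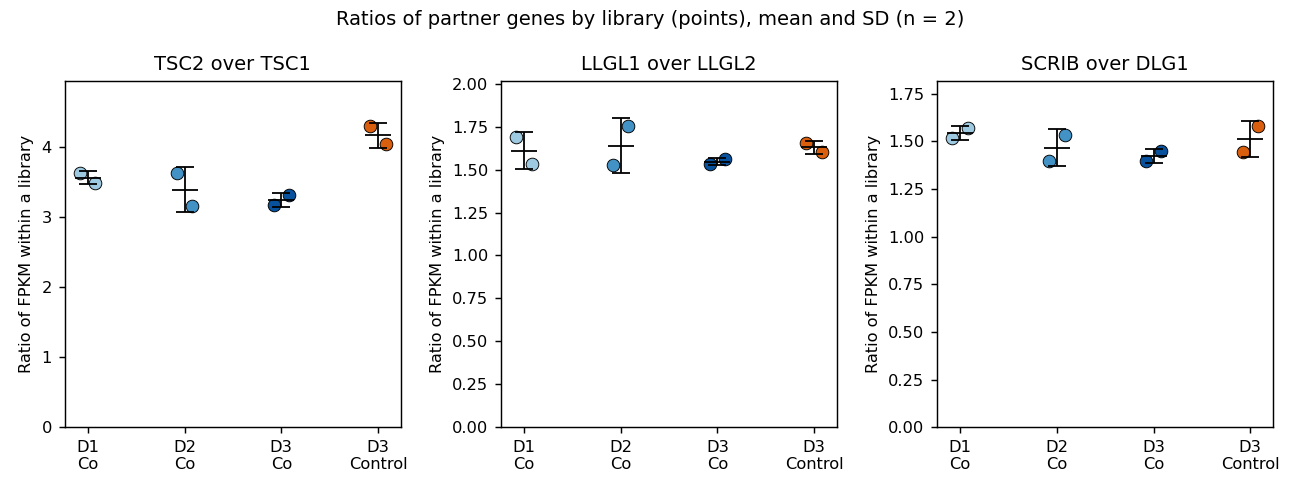
Ratio of FPKM within a library (y axis, from 0) for 3 pairs of partner genes in the 4 groups (x axis), with points for libraries and bars for mean and SD (n = 2). TSC2 over TSC1 lies between 3.17 and 3.64 in the 6 co-culture libraries, against 4.05 and 4.30 in D3_Control. The share of gene pairs separated in this way was not counted.

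Counted together, few of the 8 genes passed, and the shares stood near or below those of all tested genes. In D1_Co against D3_Control 2 of 8 passed, SPARC higher and SCRIB lower, against 22.8% of the 12449 tested genes. In D2_Co 1 of 8 passed, SPARC higher, against 25.0% of tested genes. In D3_Co 1 of 8 passed, CACFD1 lower, against 24.4% of tested genes. These 3 comparisons share the same D3_Control libraries. The groups did not overlap for 6 of 8 genes in D1_Co, 4 in D2_Co and 5 in D3_Co against D3_Control, while this held for 64.7%, 66.2% and 65.5% of all tested genes. The median log2 difference of the 8 genes was -0.17 in D1_Co, -0.04 in D2_Co and -0.05 in D3_Co, and over all tested genes it was -0.03, -0.04 and 0.00.

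Between days of co-culture only the fall of SPARC in D3_Co against D2_Co passed, as 1 of 8 genes against 15.9% of all tested genes (8.72% higher and 7.21% lower). In D2_Co against D1_Co limma called 0 of 8, with 2 at an unadjusted p under 0.05, against 7.09% of tested genes called (4.23% higher and 2.87% lower). In D3_Co against D1_Co limma called 0 of 8, with 1 at an unadjusted p under 0.05, against 26.6% of tested genes called (16.1% higher and 10.5% lower). The groups did not overlap for 4 of 8 genes in D2_Co against D1_Co, 3 in D3_Co against D2_Co and 7 in D3_Co against D1_Co, while this held for 57.0%, 62.7% and 66.5% of all tested genes. No other tool was run, since the values are FPKM and not counts. Without 1 library in turn, the number of the 8 genes called ranged from 0 to 2 in D1_Co and from 0 to 1 in D3_Co against D3_Control, while in D2_Co it was 1 throughout. It fell to 0 on day 1 without D1_Co replicate 2 or D3_Control replicate 3, and to 1 without D1_Co replicate 3.

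**Figure D4:**
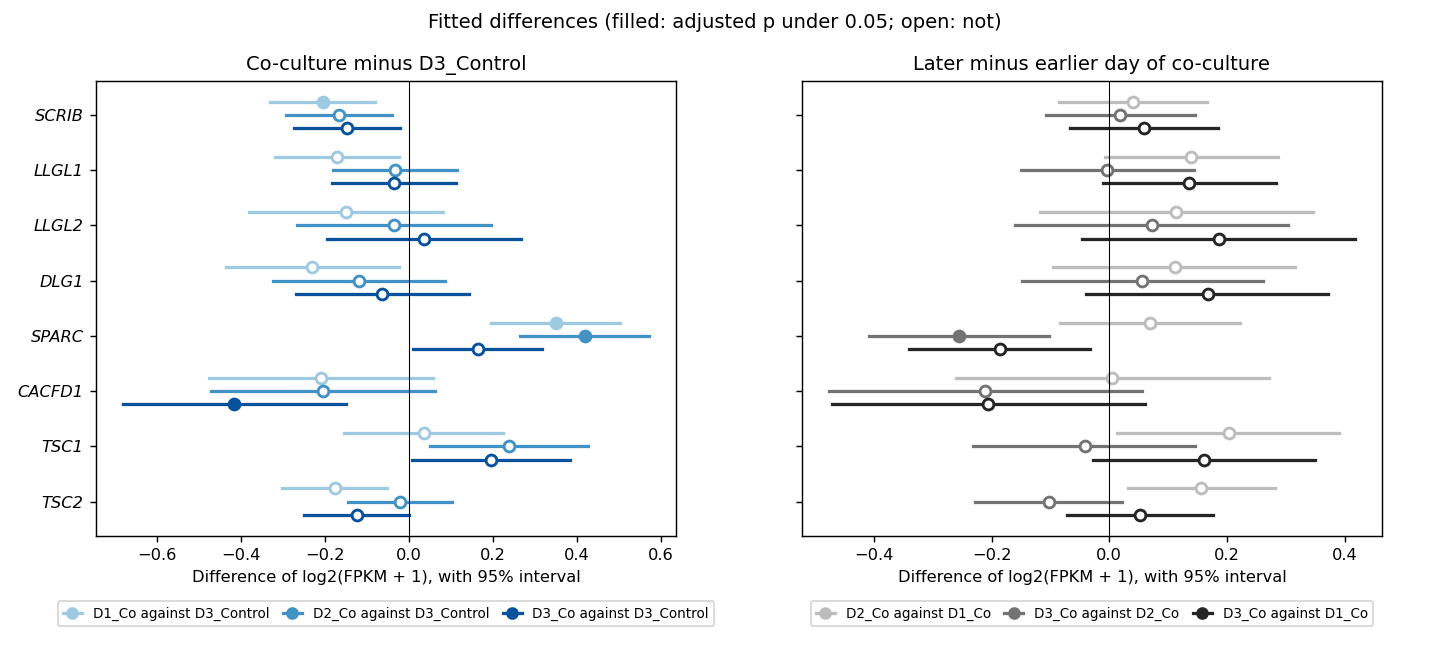
Fitted differences of log2(FPKM + 1) with 95% intervals (x axis) for the 8 genes (rows), co-culture minus D3_Control on the left and later minus earlier day on the right; filled points have an adjusted p under 0.05. Filled points on the left are SCRIB on day 1 (-0.21), SPARC on day 1 (0.35) and day 2 (0.42) and CACFD1 on day 3 (-0.42), and the filled point on the right is SPARC at -0.26 for D3_Co minus D2_Co.

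Further genes of the same pathways were counted in 9 lists, which contain the 8 genes themselves where they belong, and higher or lower below means past the adjusted p of 0.05. Over all tested genes 10.5% were higher and 12.2% lower in D1_Co, 12.4% higher and 12.6% lower in D2_Co and 13.5% higher and 10.8% lower in D3_Co against D3_Control. The wider Scribble list, with DLG and LAP relatives and partners, had 16 tested genes, of which 0 were higher and 3 lower in D1_Co, 1 higher and 0 lower in D2_Co and 3 higher and 0 lower in D3_Co against D3_Control. ARHGEF7, the beta-PIX exchange factor that binds Scribble, fell to 13.1 ± 0.17 FPKM in D1_Co, against 16.6 ± 0.25 FPKM in D3_Control (log2 difference -0.33, adjusted p = 0.00602). DLG3, a relative of DLG1, rose to 17.6 ± 0.36 FPKM in D3_Co, against 14.4 ± 0.26 FPKM in D3_Control (adjusted p = 0.00998), and STXBP5, a relative of the Lgl genes, rose to 2.64 ± 0.18 FPKM in D2_Co, against 1.70 ± 0.07 FPKM (adjusted p = 0.0123). DLG3 was not called without D3_Co replicate 2 (adjusted p = 0.0553) or D3_Control replicate 2 (0.0576), nor STXBP5 without D2_Co replicate 3 (0.0733) or D3_Control replicate 3 (0.0658). The day 1 count fell to 1 without D1_Co replicate 2 or D3_Control replicate 3, the day 2 count to 0 without D2_Co replicate 3 or D3_Control replicate 3, and the day 3 count to 0 without D3_Co replicate 2 and to 1 without D3_Co replicate 1 or either D3_Control library.

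The PAR and Crumbs complexes, which set up the apical side and oppose the Scribble module, had 17 tested genes, of which 0 were higher and 2 lower in D1_Co, 1 higher and 1 lower in D2_Co and 4 higher and 1 lower in D3_Co. PRKCI, the aPKC that phosphorylates Lgl proteins, rose to 43.7 ± 0.43 FPKM in D3_Co, against 32.0 ± 0.40 FPKM in D3_Control (log2 difference 0.44, adjusted p = 0.00187). CRB3, a Crumbs membrane protein, rose to 14.5 ± 0.11 FPKM in D3_Co, against 10.5 ± 0.65 FPKM in D3_Control (adjusted p = 0.0111), though not without D3_Co replicate 2 (0.0548) or without D3_Control replicate 2 (0.066). PARD6A, the partner of aPKC, fell to 4.13 ± 0.27 FPKM in D2_Co, against 6.56 ± 0.07 FPKM in D3_Control (log2 difference -0.56, adjusted p = 0.00259). PARD6A was also lower in D3_Co (log2 difference -0.41, adjusted p = 0.00933), the comparison in which PRKCI and CRB3 were higher. The day 3 count fell to 1 without D3_Co replicate 2 and to 2 without D3_Control replicate 2 or 3, the day 2 count to 1 without D2_Co replicate 1 or 3 or D3_Control replicate 2 or 3, and the day 1 count to 0 without D3_Control replicate 3.

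Planar cell polarity, the system that orients cells within the sheet, had 19 tested genes, of which 3 were higher and 4 lower in D1_Co, 5 higher and 0 lower in D2_Co and 8 higher and 0 lower in D3_Co. The core gene VANGL1 rose to 9.85 ± 0.22 FPKM in D1_Co, against 5.598 ± 0.18 FPKM in D3_Control (log2 difference 0.72, adjusted p = 0.000368). The WNT receptor gene ROR2 rose to 5.22 ± 0.66 FPKM in D2_Co, against 2.17 ± 0.60 FPKM (adjusted p = 0.00399), and the core gene PRICKLE3 rose to 7.48 ± 0.06 FPKM in D3_Co, against 3.45 ± 0.16 FPKM in D3_Control (adjusted p = 0.000663). The day 3 count fell to 4 without D3_Co replicate 1 or D3_Control replicate 3 and to 5 without D3_Control replicate 2, and the day 1 count of 7 fell to 4 without D1_Co replicate 2.

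The list of the SPARC family with other matricellular proteins had 15 genes, of which 10 were tested. Of these, 5 were higher and 0 lower in D1_Co, 7 higher and 0 lower in D2_Co and 5 higher and 1 lower in D3_Co, with a median log2 difference of 0.32, 0.53 and 0.39, beside -0.03, -0.04 and 0.00 over all tested genes. TNC, which encodes the adhesion-modulating protein tenascin C, rose to 40.0 ± 10.6 FPKM in D2_Co, against 4.72 ± 0.05 FPKM in D3_Control (log2 difference 2.82, adjusted p = 9.27e-05). SPP1, the osteopontin gene, rose to 567.7 ± 16.0 FPKM in D2_Co, against 208.3 ± 22.6 FPKM in D3_Control (log2 difference 1.45, adjusted p = 0.000154). CCN1, a matricellular gene known as a target of YAP, rose to 184.5 ± 8.91 FPKM in D2_Co, against 100.7 ± 5.93 FPKM in D3_Control (adjusted p = 0.000291). THBS2, a thrombospondin gene, was the 1 lower in D3_Co (log2 difference -0.43, adjusted p = 0.0264). Of the SPARC relatives, SPOCK2 was called higher on all 3 days, SPOCK1 and FSTL1 passed on none, and SPARCL1, SMOC1, SMOC2 and SPOCK3 were under the filter on low values. In D3_Co against D2_Co 0 of the 10 genes were higher and 5 lower, SPARC among them. The day 1 count fell to 3 without D1_Co replicate 2 or D3_Control replicate 3.

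Collagens and the enzymes and chaperones that fold them, whose products SPARC binds or follows through the same secretory route, had 15 tested genes. Of these 6 were higher in D1_Co, 8 in D2_Co and 9 in D3_Co, and 0 were lower on any day. COL1A2, a chain of type I collagen, rose to 25.0 ± 0.13 FPKM in D3_Co, against 12.6 ± 1.03 FPKM in D3_Control (log2 difference 0.94, adjusted p = 0.001). COL5A1, a chain of type V collagen, had 10.2 ± 1.44 FPKM in D2_Co and 4.45 ± 0.06 FPKM in D3_Control, and LOX, which cross-links collagen, had 2.19 ± 0.36 FPKM in D2_Co and 0.54 ± 0.06 FPKM in D3_Control. Both were called, on rows whose restored values were not settled. PLOD2, counted as higher in D3_Co (log2 difference 0.66, adjusted p = 0.0131), was on such a row as well. The list shares genes with the fibroblast and endoderm markers above, so its counts are not separate from theirs. The day 1 count fell to 3 without D1_Co replicate 2, D1_Co replicate 3, D2_Co replicate 3 or D3_Control replicate 3, and to 2 without D3_Control replicate 2.

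The TSC complex, its targets RHEB and RHEBL1, and kinases and stress proteins that act on it had 22 tested genes, TSC1 and TSC2 included. Of these, 3 were higher and 1 lower in D1_Co and 5 higher and 1 lower in D2_Co. In D3_Co 6 were higher and 1 lower. TBC1D7, a further subunit of the complex, was the 1 lower in D2_Co, with 12.05 ± 0.42 FPKM, against 15.1 ± 0.85 FPKM in D3_Control (log2 difference -0.30, adjusted p = 0.016 in limma). This call was lost without D2_Co replicate 1 or D3_Control replicate 2. DDIT4, the stress gene REDD1 that turns mTORC1 down through the TSC complex, had the largest log2 difference of the list, 1.99 (SE 0.07, adjusted p = 2.48e-05). It rose to 33.4 ± 2.78 FPKM in D3_Co, against 7.65 ± 0.07 FPKM in D3_Control, and exons of DDIT4-AS1 on the opposite strand cover 41.2% of its exon bases. SESN2, a stress and leucine sensor upstream of mTORC1, rose to 28.1 ± 0.49 FPKM in D3_Co, against 16.7 ± 1.09 FPKM in D3_Control (adjusted p = 0.000465). PIK3CA, the catalytic subunit of PI3 kinase, rose to 2.67 ± 0.60 FPKM in D3_Co, against 1.51 ± 0.05 FPKM in D3_Control (adjusted p = 0.0199). This was lost without D3_Co replicate 2 (0.0796), without either D3_Control library (0.0884 for replicate 2, 0.0729 for replicate 3) and with only the groups compared (0.0578), and KCNMB3 exons cover 35.8% of its exon bases. The day 3 count of 7 fell to 3 without D3_Co replicate 2, to 2 without D3_Control replicate 2 and to 4 without D3_Control replicate 3. The day 2 count of 6 fell to 2 without D2_Co replicate 1 and to 3 without D3_Control replicate 2, and the day 1 count of 4 fell to 2 without any 1 of the D1_Co, D2_Co or D3_Control libraries.

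The list of mTORC1 with its amino acid sensors and substrates had 29 tested genes. It also held RICTOR and MAPKAP1, which belong to the related complex mTORC2. Of the 29, 6 were higher and 0 lower in D1_Co and 5 higher and 1 lower in D2_Co. In D3_Co 4 were higher and 3 lower. MAPKAP1 was among the higher genes in D1_Co, D2_Co and D3_Co (adjusted p = 0.0313, 0.0301 and 0.0275 in limma). EIF4EBP1, a translation repressor that mTORC1 phosphorylates, rose to 209.7 ± 11.8 FPKM in D1_Co, against 122.1 ± 1.54 FPKM in D3_Control (log2 difference 0.77, adjusted p = 0.000138). FLCN, a regulator of the Rag GTPases, rose to 10.7 ± 0.12 FPKM in D2_Co, against 6.92 ± 0.03 FPKM in D3_Control (adjusted p = 0.00225). CASTOR1, an arginine sensor, was called in D3_Co with 3.79 ± 0.08 FPKM, against 2.21 ± 0.92 FPKM in D3_Control (adjusted p = 0.0439), but not in 7 of the 8 fits without 1 library, D3_Control replicate 3 being the exception (adjusted p 0.0656 to 0.144 in the 7). It was lost in 13 of 18 alternatives in all, among them the smaller pseudocount (0.0512), quantile normalization (0.0677), no filter on low values (0.1) and only the groups compared (0.1), and the gene AC004997.1 on the same strand covers 46.0% of its exon bases. The median log2 difference of the list was 0.01, -0.03 and -0.01 in D1_Co, D2_Co and D3_Co, close to that of all tested genes. The day 1 count of 6 fell to 3 without D1_Co replicate 2 or D3_Control replicate 3, and the day 2 count of 6 fell to 3 without D2_Co replicate 1 or either D3_Control library. The day 3 count of 7 fell to 4 without D1_Co replicate 2 or 3 or D3_Control replicate 3 and to 3 without D3_Co replicate 2 or D3_Control replicate 2.

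The Hippo cascade, which polarity proteins feed into and which restrains YAP and TAZ, had 19 tested genes, of which 4 were higher and 0 lower in D1_Co, 5 higher and 0 lower in D2_Co and 4 higher and 1 lower in D3_Co. FRMD6, which encodes an upstream scaffold of the cascade, rose to 11.6 ± 0.92 FPKM in D2_Co, against 3.51 ± 0.58 FPKM in D3_Control (log2 difference 1.48, adjusted p = 0.000208). WWTR1, the gene of TAZ, rose to 11.3 ± 0.84 FPKM in D1_Co, against 7.55 ± 0.29 FPKM in D3_Control (adjusted p = 0.00279), and TEAD3, a DNA-binding partner of YAP and TAZ, rose to 30.8 ± 0.48 FPKM in D2_Co, against 21.7 ± 0.62 FPKM (adjusted p = 0.00138). The day 3 count of 5 fell to 3 without D2_Co replicate 1 or 3, D3_Co replicate 2 or either D3_Control library.

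Calcium entry and vesicle genes, set beside the Flower relative CACFD1, had 14 tested genes, of which 3 were higher and 2 lower in D1_Co, 2 higher and 2 lower in D2_Co and 3 higher and 1 lower in D3_Co. ORAI1, the pore of store-operated calcium entry, rose to 41.0 ± 0.49 FPKM in D1_Co, against 29.6 ± 0.02 FPKM in D3_Control (log2 difference 0.46, adjusted p = 0.000758). Its relative ORAI2 rose to 3.87 ± 0.17 FPKM in D1_Co, against 2.57 ± 0.03 FPKM (adjusted p = 0.00667). STIM1, the calcium sensor that opens ORAI channels, rose to 8.35 ± 0.45 FPKM in D3_Co, against 5.77 ± 0.45 FPKM in D3_Control (adjusted p = 0.0231). It was not called without either D3_Co library (0.0617 for replicate 1, 0.106 for replicate 2), without either D3_Control library (0.114 for replicate 2, 0.0574 for replicate 3) or without the filter on low values (0.0531). The day 3 count of 4 fell to 1 without D3_Co replicate 1 or either D3_Control library, the day 2 count of 4 to 1 without D2_Co replicate 3 or D3_Control replicate 3 and to 2 without D3_Control replicate 2, and the day 1 count of 5 to 2 without D1_Co replicate 2 or D3_Control replicate 3. Over the 9 lists 27 genes were named, 21 of them called in every fit without 1 library, and with the rows as deposited DLG3, PRKCI, VANGL1, SPP1, COL5A1, DDIT4, PIK3CA, EIF4EBP1, CASTOR1, FLCN and STIM1 were not called.

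**Figure D5:**
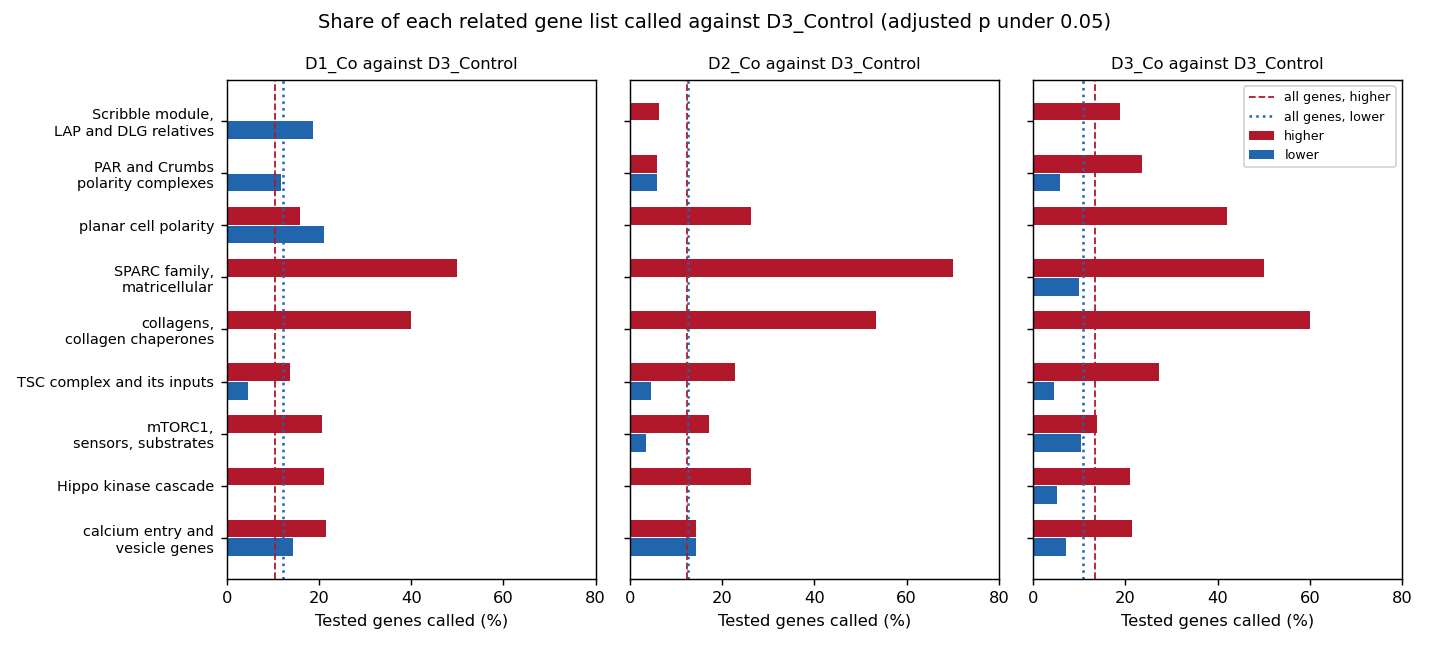
Share of the tested genes of 9 related lists (rows) called against D3_Control (x axis, percent) in D1_Co, D2_Co and D3_Co (panels), with red bars for higher, blue bars for lower and vertical lines for all tested genes. The list of collagens with their chaperones and enzymes reaches 60.0% called higher in D3_Co, beside 13.5% of all genes, while the wider Scribble list reaches 18.8%. The 60.0% includes COL5A1 and PLOD2, on rows whose restored values were not settled.

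Over the 8 libraries the genes that followed each member most closely were found by Pearson correlation of log2(FPKM + 1) with 11906 other settled genes, as a description in which group differences and shared library effects both enter. The 3 nearest to SPARC were ZYX (r = 0.992), the gene of the focal adhesion protein zyxin, SH3BGRL3 (0.985) and CD276 (0.984). ZYX had group means of 533.7, 570.4 and 456.2 FPKM in D1_Co, D2_Co and D3_Co, against 410.0 FPKM in D3_Control. The 3 nearest to SCRIB were MATR3 (r = 0.988), LIG1 (0.988), the replicative DNA ligase gene, and GDF3 (0.983), the gene of a TGF-beta family ligand of pluripotent cells. MATR3 shares most of its exon bases with a second annotated MATR3 entry and with SNHG4, so its value is uncertain.

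For LLGL1 the nearest were ZNF266 (0.947), TRIM46 (0.947) and LZTS2 (0.936), and for LLGL2 they were FTO (0.945), MCCC1 (0.928) and SLC26A2 (0.924). For DLG1 they were TMEM167A (0.952), ATP2C1 (0.95) and DLAT (0.932), and for CACFD1 they were TCTA (0.974), SIX5 (0.971) and LINC00667 (0.958). For TSC1 they were THBS3 (0.979), TMEM44 (0.955) and FOXO3 (0.95), and for TSC2 they were NUMA1 (0.987), STK11IP (0.982) and PAXBP1 (0.978). Exons of genes on the opposite strand cover 59.3% of the exon bases of SIX5, 29.6% of LINC00667, 25.4% of THBS3 and 24.9% of NUMA1, so these values may hold reads of their neighbours. Among the 8 genes themselves the highest correlation was that of SCRIB with DLG1 (r = 0.825, n = 8 libraries), followed by LLGL1 with LLGL2 (0.793), and the lowest was that of SCRIB with SPARC (-0.822). TSC1 and TSC2, the subunits of 1 complex, had r = 0.093.

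As a check of the cell type, all 12 markers of human pluripotent cells were tested, and POU5F1, the gene of OCT4, lay between 722 and 811 FPKM in every library. The summed level of the 12 markers was 2364 to 2376 FPKM in D1_Co, 2419 to 2504 in D2_Co and 2504 to 2554 in D3_Co, against 2938 to 3024 FPKM in D3_Control. Of the 12, 8 were called lower and 1 higher in D1_Co, 7 lower and 1 higher in D2_Co and 7 lower and 0 higher in D3_Co. DNMT3B, the de novo DNA methyltransferase gene, had 269.9 to 420.1 FPKM in co-culture and 651.9 and 663.0 FPKM in D3_Control. Neural markers (3 of 7 tested) summed to 181 to 190, 251 to 262 and 214 to 215 FPKM in D1_Co, D2_Co and D3_Co, against 174 to 183 FPKM in D3_Control, with SOX1 and ZIC1 below 0.1 FPKM in every library. Epithelial markers (8 of 8 tested) summed to 2053 to 2105, 2021 to 2106 and 1866 to 1984 FPKM, against 1821 to 1930 FPKM in D3_Control. The part of these shifts in the values of the 8 genes was not tested. FPKM summed to between 421825 and 440675 in each library, the sources used here give no read total for any library, and the labels name no batch.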

How the data were processed

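Reads were aligned and transcripts quantified with HISAT2 2.1.0 and StringTie 1.3.3b on GRCh38.p12, per the submitters' processing notes; settings are not given in the sources used here. The deposited values are FPKM, in 1 table made by the authors. Its misplaced values were returned to their genes in Python 3.11.15 by an exact search over the orders that the text sort allows, minimising the summed difference of log2(FPKM + 1), capped at 4 per row. Of the 12449 tested rows, 4485 held a moved value, and 542 were not settled when the matched library was perturbed. Values of log2(FPKM + 1) were then modelled in limma 3.58.1 (R 4.3.3) with an intensity trend, using all 8 libraries in 4 groups and the genes averaging 1 FPKM or more. Its 4 residual and 3.19 prior degrees of freedom limit precision, and fold changes of low genes are understated. P-values were adjusted by Benjamini-Hochberg over all tested rows, with a threshold of 0.05. The search and the fit were tested on simulated data. Those data were built from the restored values and scrambled by the assumed sort, so they could not test whether that sort is the true history. The members and lists were chosen with earlier results of these data known. Named were the 8 genes, the 3 called genes of each of 9 lists with the largest absolute log2 difference against D3_Control, and the 3 settled genes most like each member. SOX17, GATA4, GATA6, EOMES, CXCR4, FOXA2, LAMA1, AFP, VIM, POU5F1 and DNMT3B were picked from the 5 marker lists after their values were seen. So were COL1A1, COL1A2, S100A4, COL4A1, COL4A2, LAMB1 and LAMC1. THBS2, SPOCK1, SPOCK2, FSTL1, PLOD2, TBC1D7, RICTOR and MAPKAP1 were picked from the 9 lists in the same way. Annotation is GENCODE v29.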

Additional observations from a re-analysis of the deposited data

Results flagged for a closer look

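The difference of SPARC from D3_Control was smaller on day 3 of co-culture than on day 2. The log2 difference against D3_Control was 0.42 in D2_Co and 0.16 in D3_Co, and since both use the same D3_Control libraries, the gap between them is D3_Co minus D2_Co, -0.26 (SE 0.07, adjusted p = 0.0408 in limma). Both D3_Co libraries lay below both D2_Co libraries. With no separate culture on day 2, a change with co-culture and a change with time cannot be told apart. The call was lost in the fit without any 1 of the 4 libraries compared, with adjusted p of 0.107 without D2_Co replicate 1, 0.161 without D2_Co replicate 3, 0.161 without D3_Co replicate 1 and 0.0795 without D3_Co replicate 2. Groups of 2 libraries allowed no check for single outlying values.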

How the results depend on the processing

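The log2 differences of the 8 genes over the 6 comparisons gave 876 values under 19 alternatives. Of these, 800 kept direction and side of the threshold, 29 lost a call, 4 gained one, 41 changed sign with no call on either side and 2 called differences changed sign. Those 2 were SPARC with the rows as deposited, -1.78 in D2_Co against D3_Control and 1.94 in D3_Co against D2_Co. The number of the 8 genes called in D1_Co against D3_Control was 2, and 0 with the rows as deposited, 0 with only the rows in place, and 1 each with median-of-ratios scaling, quantile normalization, no intensity trend, only the groups compared and the replicate block, and 3, TSC2 being added, under the 5 FPKM filter. In D2_Co against D3_Control it was 1, and 0 as deposited and with only the rows in place. In D3_Co against D3_Control it was 1, and 0 as deposited, with a mean of at least 5 FPKM (CACFD1 then left the fit), with no filter on low values, with only the groups compared and with the replicate block, and 2 with quantile normalization. In D3_Co against D2_Co it was 1, and 0 as deposited, with only the rows in place, with no filter, with no intensity trend and with only the groups compared. In D3_Co against D1_Co it was 0, and 1 with median-of-ratios scaling. Leaving out 1 library gave 0 to 2, 1 throughout, 0 to 1, 0 to 1 and 0 in these 5 comparisons. Only the rows in place left 3 of the 8 genes in the fit. The causes of the other changes were not tested.

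Over all genes, the calls in D1_Co, D2_Co and D3_Co against D3_Control numbered 2835, 3117 and 3032, and 1753, 1982 and 1877 with only the rows in place. With the replicate block they were 2076 in D2_Co and 1819 in D3_Co against D3_Control, 101 (from 883) in D2_Co against D1_Co, 720 (from 1984) in D3_Co against D2_Co and 1934 (from 3310) in D3_Co against D1_Co. D1_Co and D3_Control, the groups sharing both numbers, showed no pairing (r = -0.007 between their replicate 2 minus 3 differences), and for the other groups the pairing was not tested. In D2_Co against D1_Co the count was 545 with only the rows in place, 344 with no filter and 154 with only the groups compared, and in D3_Co against D2_Co 1218 with only the rows in place and 1033 with only the groups compared, and in D3_Co against D1_Co 2030 with only the rows in place. Fits without 1 library went as low as 1355, 1496, 1603, 67, 475 and 1673 in these 6 comparisons. Where a group was left with 1 library, that library was assumed to vary like the other groups. The sources used here give no depth per library, so the counting error of low genes such as CACFD1 is unknown.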
